A study of Mus musculus with 6 samples.

Results

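The genes described here sense DNA damage or repair it, from the glycosylases that cut out oxidised bases to the kinases and recombination factors that respond to broken strands. They were listed by name, as 54 gene symbols relevant to oxidative damage, and the list was made with earlier results of these data known. Of these, 53 were rows of the deposited table of 57180 rows, and 52 passed the filter on low counts, out of 17635 genes that passed in all. The symbol Nth was not found in the table, and Neil2 was under the filter. The samples were 10T1/2 cells, a mouse mesenchymal fibroblast line, and all of them carried the same prior stimulus, TGF-β (5 ng per mL), so that the cells resembled the fibroblasts of tumours. The 3 samples of the PBS group received buffer. The 3 samples of the PDT group received photodynamic therapy, in which the light-absorbing dye chlorin e6, carried in extracellular vesicles named D4-EV and directed at midkine (MDK), was followed by light. Vesicle, dye and light were given together, so that their separate parts cannot be told apart in these libraries. Whether the PBS samples also received light is not given in the sources used here, nor is the time between treatment and RNA extraction.

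Photodynamic therapy works through reactive oxygen species, chiefly singlet oxygen, which oxidise lipids, proteins and, where they reach it, DNA. Oxidised bases are removed by base excision repair: a glycosylase cuts out the base, an endonuclease opens the strand, and a polymerase and a ligase close the gap, with PARP enzymes marking the open strand. Bulky lesions go to nucleotide excision repair, mismatched bases to mismatch repair, and breaks through both strands to homologous recombination or end joining. Breaks and stalled replication forks are signalled by the kinases ATM and ATR through phosphorylation of proteins, which RNA sequencing does not measure.

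RNA was measured in 6 libraries of 83195529 to 99527847 counts each. The members took 0.278% to 0.287% of the counts of a library, and the lowest count of a tested member in any library was 268. On the first principal component of all tested genes the PBS libraries lay between -35.9 and -32.9, PDT 1 and PDT 2 at 39.9 and 38.9, and PDT 3 at 23.7, nearer to PBS than the other PDT libraries. Of the 10 fibroblast markers examined, 7 exceeded 90 CPM on average in PBS, where CPM is the count scaled to library size, whereas Thy1, Dcn and Lum were near 0, at 0.297, 0.603 and 0.382 CPM. Of 15 markers of leukocytes, endothelium and epithelium, 6 had no count in any library, among them Ptprc, Kdr and Epcam, and none exceeded 1.48 CPM. The summed leukocyte markers ran from 0.831 to 0.902 CPM in PBS and from 1.41 to 1.51 CPM in PDT, nearly all of it Cd68, with Ptprc, Adgre1 and Cd3e at 0 in every library. The endothelial sum was 0.527 to 1.08 CPM in PBS and 0.269 to 0.417 CPM in PDT, and the epithelial sum 0.699 to 1.31 and 0.566 to 0.579 CPM. In bulk RNA, fewer cells of a kind and less RNA per cell cannot be told apart. Because nothing says that the replicates came from separate cultures, the p-values rest on a spread that may be partly technical.

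The repair genes moved in both directions and by small amounts. A gene was called changed at an adjusted p under 0.05 in the quasi-likelihood test of edgeR, adjusted over all 17635 genes. By that rule 8 of the 52 tested members rose after PDT (15.4%) and 12 fell (23.1%), which makes 20 called members, or 38.5%. Among all tested genes 36.1% were called, 18.7% higher and 17.5% lower, so that under this filter the members were called about as often as genes in general. The counts by role given below rest on 1 to 9 tested members each and are to be read beside these shares. Whether calls gather in any role was not tested. The comparison depended on the filter. With a stricter one (10 counts in 3 samples, mean of 1 CPM) 22 of 52 members were called, against 48.0% of all genes. With no filter 16 of 53 were called, against 17.7% of all genes. With scaling by library size only, 12 members rose and 10 fell, against 24.3% and 14.3% of all genes. Without PDT 1 or without PDT 2 the members called were 13, against 26.3% and 26.8% of all genes, and the members called higher were 4 without PBS 1, 4 without PDT 1 and 5 without PDT 2, against 14.3%, 12.8% and 13.0% of all genes.

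The median log2 fold change of the members, PDT against PBS, was -0.03, beside 0.01 over all tested genes. The middle of the distribution ran from -0.16 at the lower quartile to 0.06 at the upper quartile, and the extremes were -0.66 for Brca2 and 0.55 for Ung, so that no member changed by 1 on the log2 scale. Only Ung rose by at least 0.5 (1.92% of members, against 3.87% of all genes) and only Brca2 fell by at least 0.5 (against 6.70% of all genes). The PDT and PBS libraries did not overlap for 26 of the 52 members, with PDT above in 9 and below in 17; among all tested genes 49.0% did not overlap, 25.6% above and 23.4% below. Ogg1, Ung, Parp1 and Xpc rose, and Neil3, Brca1, Brca2 and Wrn fell, in each of 17 fits that varied the scaling, filter, tool, design and samples.

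**Figure D1:**
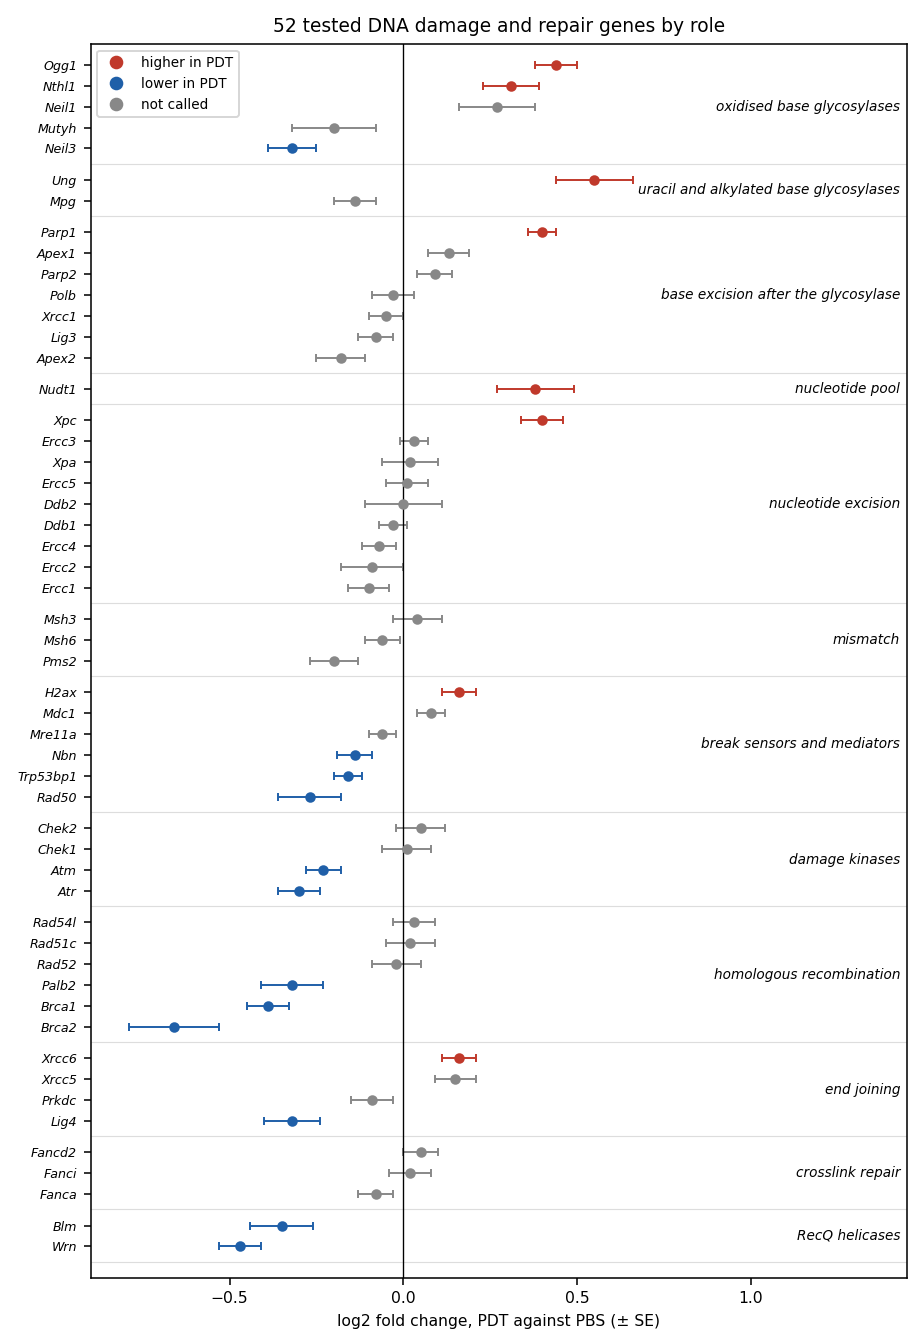
Log2 fold change of each of the 52 tested repair genes, PDT against PBS (horizontal axis, log2 scale), with genes grouped by role; points are estimates and bars ± 1 SE from edgeR with 3 libraries a group. Red genes rose, blue genes fell and grey genes were not called; estimates run from -0.66 (Brca2) to 0.55 (Ung), and the 12 blue genes lie in the break, kinase, recombination, end joining and helicase roles apart from Neil3.

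Promoter sequence is shown for 2 of the genes that rose and 2 that fell in all fits, because the members were searched for motifs of the cell cycle and of the antioxidant response. RefSeq promoters (GRCm38.p6, from 250 bases before the start of the gene to 50 after it) matched 41 of the 53 members by symbol. The stretches printed below are the 200 bases before the start, read 5′ to 3′ along the strand of the gene, with motif matches on either strand in capitals. Ogg1 (chr6:113326776-113326975, plus strand) holds 2 CCAAT boxes, both on the opposite strand. Parp1 (chr1:180568691-180568890, plus strand) holds none of the motifs. Brca1 (chr11:101551956-101552155, minus strand) holds 1 CCAAT box, and Brca2 (chr5:150522421-150522620, plus strand) holds 1 E2F match and 1 match of the antioxidant response core, both on the opposite strand.
Ogg1: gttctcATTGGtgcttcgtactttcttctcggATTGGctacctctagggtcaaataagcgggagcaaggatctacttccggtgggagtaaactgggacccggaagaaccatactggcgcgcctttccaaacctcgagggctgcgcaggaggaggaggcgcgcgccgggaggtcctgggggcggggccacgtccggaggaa
Parp1: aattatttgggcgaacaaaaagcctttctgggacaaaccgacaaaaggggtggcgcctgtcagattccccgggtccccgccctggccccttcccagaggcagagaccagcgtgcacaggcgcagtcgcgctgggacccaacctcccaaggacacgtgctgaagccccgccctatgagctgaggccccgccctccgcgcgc
Brca1: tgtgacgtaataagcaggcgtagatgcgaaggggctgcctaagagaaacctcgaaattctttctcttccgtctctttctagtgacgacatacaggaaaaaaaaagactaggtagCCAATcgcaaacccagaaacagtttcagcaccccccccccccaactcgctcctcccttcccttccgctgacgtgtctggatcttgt
Brca2: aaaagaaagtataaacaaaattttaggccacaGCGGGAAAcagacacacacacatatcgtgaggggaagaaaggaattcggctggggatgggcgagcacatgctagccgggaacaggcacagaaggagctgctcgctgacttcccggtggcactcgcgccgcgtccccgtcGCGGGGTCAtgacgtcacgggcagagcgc
Over the full promoter windows, the E2F motif (TTTGGCGC, TTTCGCGC, TTTCCCGC or TTTGCCGC, either strand) was found in 8 of the 41 members (19.5%) and in 2.6% of all 27025 genes with promoters of the same length. Each gene was counted once, with a match in any of its promoters. The 27025 genes were not limited to tested genes and were not matched to the members in base composition. An excess of a motif over them is therefore a description only. Those 8 members did not share a direction: Nthl1 and Xrcc6 were called higher, Brca2 was called lower, and Chek2, Mdc1, Msh3, Msh6 and Rad51c were not called. The CCAAT box (CCAAT) was found in 24 members (58.5%, against 41.1% of all genes with a promoter). The cell cycle homology region (TTTGAA) was found in 1 member (2.44%, against 20.2%) and the antioxidant response core (TGACNNNGC) in 7 (17.1%, against 14%). Among members with a promoter, the antioxidant response core was in 0 of the 6 called higher and in 1 of the 9 called lower. A match describes the letters of a window and is not evidence of binding.

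Among the glycosylases that remove oxidised bases, 2 of the 5 tested members rose and 1 fell. Ogg1 encodes the glycosylase that removes 8-oxoguanine, the most familiar oxidised base. Its level was 14.9, 13.8 and 13.8 CPM in PBS 1 to 3 and 19.9, 18.9 and 18.6 CPM in PDT 1 to 3. All PDT libraries lay above all PBS libraries, and the mean went from 14.2 ± 0.639 to 19.2 ± 0.689 CPM (SD, n = 3), a log2 fold change of 0.44 ± 0.06 (SE, adjusted p = 6.03e-04), or 1.35-fold. Nthl1, whose enzyme removes oxidised pyrimidines, went from 9.91, 12.1 and 11.6 to 14.4, 13.3 and 13.8 CPM without overlap, a log2 fold change of 0.31 ± 0.08 (adjusted p = 0.0183); the call was lost without PBS 1 (adjusted p = 0.0527) and without PDT 1 (0.0742). Neil1, of the other family of oxidised base glycosylases, also stood higher in each PDT library, at 3.14, 3.33 and 3.60 CPM against 4.11, 4.02 and 3.99 CPM, but its log2 fold change of 0.27 ± 0.11 was not called (adjusted p = 0.0887).

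Neil3 went the other way. This glycosylase of the Neil family is known for its expression in dividing cells and for acting on single-stranded DNA. Its level was 27.2, 26.8 and 28.9 CPM in PBS and 22.8, 20.1 and 23.6 CPM in PDT, with each PDT library below each PBS library. The log2 fold change was -0.32 ± 0.07 (adjusted p = 0.00606), a mean of 27.6 ± 1.14 against 22.2 ± 1.86 CPM. Mutyh, which removes adenine paired with 8-oxoguanine, had a log2 fold change of -0.20 ± 0.12 and was not called (adjusted p = 0.217). Neil2 had 3 to 5 counts in the PBS libraries and 2 to 5 in the PDT libraries, where 3 counts correspond to 0.0298 to 0.0368 CPM, so that no change of it was detectable at this depth.

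Ung, the glycosylase that removes uracil from DNA, had the highest fold change of all members. It stood at 4.98, 4.38 and 4.50 CPM in PBS and at 7.53, 6.08 and 6.75 CPM in PDT. The groups did not overlap, although the PDT libraries were more spread than the PBS libraries, with means of 4.62 ± 0.319 and 6.78 ± 0.726 CPM. The log2 fold change was 0.55 ± 0.11 (adjusted p = 0.00357), or 1.47-fold. Mpg, which removes alkylated purines, was not called (-0.14 ± 0.06, adjusted p = 0.114).

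Of the 7 members that act after the glycosylase, only Parp1 was called. Parp1 encodes the poly(ADP-ribose) polymerase that binds open strands, and among the members it had the lowest adjusted p. Its level was 101, 98.7 and 103 CPM in PBS against 133, 136 and 129.5 CPM in PDT. The gap between the groups was many times the spread within them, at 101 ± 2.20 against 133 ± 3.22 CPM, with a log2 fold change of 0.40 ± 0.04 (adjusted p = 4.3e-05), or 1.32-fold. The related Parp2 was not called (0.09 ± 0.05, adjusted p = 0.196). The core enzymes of the pathway were not called either: the endonuclease Apex1 had a log2 fold change of 0.13 (adjusted p = 0.147; 0.21 and 0.0251 without PBS 2), the gap-filling polymerase Polb -0.03 (0.690), the scaffold Xrcc1 -0.05 (0.429) and the ligase Lig3 -0.08 (0.189). Apex2, the other endonuclease, stood lower in each PDT library, at -0.18 ± 0.07, and was not called (adjusted p = 0.0561), except without PBS 2 among the single libraries left out (-0.22, 0.0467).

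Nudt1 encodes the hydrolase (MTH1) that clears oxidised guanine nucleotides before they are built into DNA. It was called higher, from 5.75, 7.15 and 6.47 CPM to 8.89, 8.94 and 7.42 CPM, with a log2 fold change of 0.38 ± 0.11 (adjusted p = 0.0239). PDT 3 stood only just above the highest PBS library. The call depended on single libraries: the adjusted p was 0.0855 without PBS 1, 0.0633 without PBS 3, 0.0944 without PDT 1 and 0.0982 without PDT 2.

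**Figure D2:**
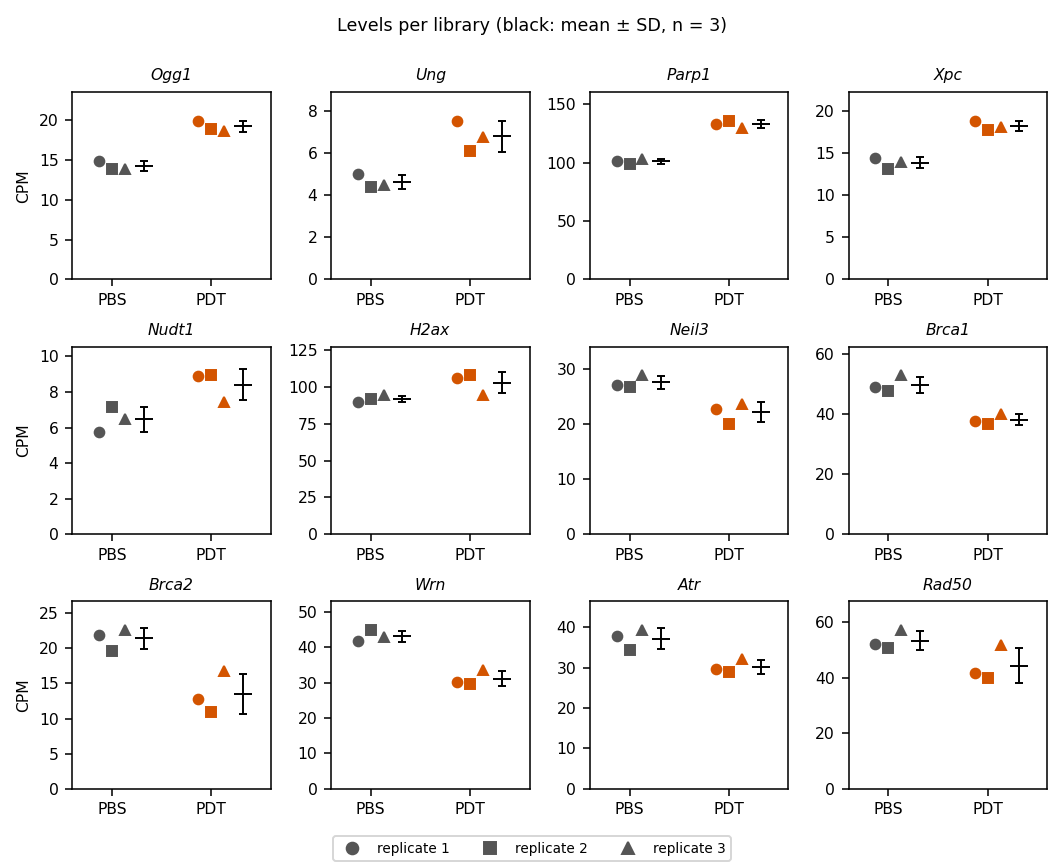
Level in CPM (vertical axis, from 0) of 12 repair genes in each of the 3 PBS libraries (grey) and 3 PDT libraries (orange). Symbols mark the replicate number, for which the labels state no pairing across groups, and black bars give the mean ± SD. The groups are apart for Ogg1 (13.8 to 14.9 against 18.6 to 19.9 CPM) and Parp1, while for H2ax and Nudt1 PDT 3 lies close to PBS and for Rad50 it lies inside the PBS range.

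In nucleotide excision repair 1 of the 9 tested members was called. That gene was Xpc, whose product recognises distorted DNA and starts repair outside transcribed strands. Its level was 14.5, 13.2 and 14.0 CPM in PBS and 18.9, 17.8 and 18.1 CPM in PDT, with no overlap. The log2 fold change was 0.40 ± 0.06 (adjusted p = 0.00109), or 1.31-fold, from a mean of 13.9 ± 0.655 to 18.3 ± 0.581 CPM. Ddb2, which also encodes a damage recognition subunit, was not called: it stood at 5.25, 4.96 and 5.64 CPM in PBS and 5.20, 4.77 and 5.82 CPM in PDT, a log2 fold change of 0.00 ± 0.11 (adjusted p = 0.979) with a 95% interval from -0.22 to 0.21. The partner of Ddb2, Ddb1, also serves as an adaptor of CUL4 ubiquitin ligases and was by far the most abundant member, with 40.1% to 42.3% of all member counts in each library. Ddb1 had 1188, 1195 and 1148 CPM in PBS against 1175, 1163 and 1124 CPM in PDT, and was not called (-0.03 ± 0.04, adjusted p = 0.575). The helicases Ercc2 and Ercc3, the nucleases Ercc4 and Ercc5, the scaffold Xpa, and Ercc1 had log2 fold changes between -0.10 (Ercc1) and 0.03 (Ercc3). Their adjusted p ran from 0.206 (Ercc1) to 0.929 (Ercc5).

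Of the 3 mismatch repair members 0 were called by edgeR; 1 (Pms2) had an unadjusted p under 0.05, and that gene was called lower by DESeq2 and not by limma-voom. The recognition subunits Msh3 and Msh6 had log2 fold changes of 0.04 ± 0.07 (adjusted p = 0.663) and -0.06 ± 0.05 (adjusted p = 0.348). Pms2, which cuts the strand to be replaced, stood lower in each PDT library at -0.20 ± 0.07, with an adjusted p of 0.0518 just above the threshold, and was called without PDT 3 (-0.25, 0.0303). In the GENCODE M21 annotation Pms2 shares 394 exonic nucleotides with Gm42421 on the same strand, so that counts from there are uncertain.

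Of the 6 tested members that find and mark broken ends, 1 was called higher and 3 lower, and each of these calls was lost with the correction for length and GC content given further on. Trp53bp1, which binds chromatin beside breaks and favours end joining, went from 106, 102 and 105 CPM to 91.6, 94.5 and 95.4 CPM. The groups were apart (105 ± 2.10 against 93.8 ± 2.01 CPM), with a log2 fold change of -0.16 ± 0.04 (adjusted p = 0.00826). Rad50 and Nbn belong to the MRN complex, which holds broken ends and activates ATM. Rad50 was called lower at -0.27 ± 0.09 (adjusted p = 0.0471), from 52.3, 50.7 and 57.2 CPM to 41.6, 39.9 and 51.8 CPM. PDT 3 lay within the PBS range; without it the log2 fold change was -0.39 (adjusted p = 5.99e-04), and without any other single library the call was lost (adjusted p from 0.0637 to 0.166). Nbn was called lower at -0.14 ± 0.05 (adjusted p = 0.0474), and lost the call without PBS 2, PBS 3, PDT 1, PDT 2 or PDT 3 (0.0636 to 0.144). The nuclease of that complex, Mre11a, was not called (-0.06 ± 0.04, adjusted p = 0.322), nor was the mediator Mdc1 (0.08 ± 0.04, adjusted p = 0.155).

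H2ax, the histone variant that is phosphorylated around breaks, was the member of this group that was called higher. It stood at 90.2, 91.9 and 94.3 CPM in PBS and at 106, 108 and 94.6 CPM in PDT, so that PDT 3 exceeded the highest PBS library by a hair. The log2 fold change was 0.16 ± 0.05 (adjusted p = 0.0397). The adjusted p was 0.00187 without PDT 3, and between 0.0648 and 0.173 without any other single library.

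Both kinases at the head of the damage response were called lower, and both checkpoint kinases that they activate were not called. Atm, the kinase for double-strand breaks, went from 38.7, 38.0 and 42.6 CPM to 33.7, 34.4 and 33.9 CPM, with all PDT libraries below PBS and a log2 fold change of -0.23 ± 0.05 (adjusted p = 0.00891). Atr, the kinase for stalled forks, went from 37.9, 34.4 and 39.3 CPM to 29.7, 28.8 and 32.1 CPM, likewise without overlap, at -0.30 ± 0.06 (adjusted p = 0.00525). The levels fell by 14.5% and by 18.8%. Both calls, and their direction, were lost once libraries were corrected for transcript length and GC content, as given further on. Chek1 stood at 21.1, 22.1 and 25.3 CPM against 23.8, 22.2 and 23.1 CPM, a log2 fold change of 0.01 ± 0.07 (adjusted p = 0.907) with a 95% interval from -0.13 to 0.16. Chek2 stood at 12.5, 12.5 and 13.1 CPM against 13.7, 13.6 and 12.1 CPM, at 0.05 ± 0.07 (adjusted p = 0.616) with a 95% interval from -0.09 to 0.19. For both checkpoint kinases the PDT values lay among or around the PBS values.

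Homologous recombination held the largest fall. Of its 6 tested members 3 fell (Brca1, Palb2 and Brca2) and the other 3 were not called, beside 17.5% of all tested genes called lower. Brca2, which prepares single-stranded DNA for strand exchange, went from 21.9, 19.6 and 22.6 CPM to 12.8, 11.0 and 16.7 CPM. Every PDT library lay below every PBS library, with PDT 3 the least reduced, and the means were 21.4 ± 1.55 and 13.5 ± 2.91 CPM. The log2 fold change was -0.66 ± 0.13 (adjusted p = 0.00371), which is 1.58-fold lower, and without PDT 3 it was -0.85 (adjusted p = 9.54e-05).

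Brca1, which works upstream of Brca2 in end processing and recruitment, went from 48.9, 47.7 and 52.9 CPM to 37.7, 36.6 and 40.1 CPM. The groups were well apart, at 49.8 ± 2.70 and 38.1 ± 1.80 CPM, with a log2 fold change of -0.39 ± 0.06 (adjusted p = 5.63e-04), or 1.31-fold lower. Palb2, the bridge between the proteins of Brca1 and Brca2, went from 6.59, 6.54 and 6.25 CPM to 5.30, 4.86 and 5.37 CPM, at -0.32 ± 0.09 (adjusted p = 0.0214). The call of Palb2 was lost without PBS 1 (adjusted p = 0.0621), PBS 2 (0.0590), PDT 1 (0.0539) or PDT 2 (0.0842). Rad51c (0.02 ± 0.07, adjusted p = 0.890), the annealing factor Rad52 (-0.02 ± 0.07, 0.873) and the motor protein Rad54l (0.03 ± 0.06, 0.754) were not called.

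Among the 4 members of end joining, 1 was called higher and 1 lower. Lig4, the ligase that closes the break, went from 11.1, 11.2 and 11.2 CPM to 8.71, 8.41 and 9.78 CPM, without overlap, at -0.32 ± 0.08 (adjusted p = 0.0121), and without PDT 2 its adjusted p was 0.0505. Xrcc6 and Xrcc5 encode the Ku proteins that thread onto a broken end. Xrcc6 was called higher at 0.16 ± 0.05 (adjusted p = 0.0378), from 59.4, 57.5 and 62.9 CPM to 70.5, 68.1 and 62.8 CPM. PDT 3 fell within the PBS range, and the call was lost without PBS 1 (0.104), PBS 2 (0.133), PDT 1 (0.173) or PDT 2 (0.120). Xrcc5 stood higher in each PDT library by a like amount, 0.15 ± 0.06, and was not called (adjusted p = 0.0654), except without PDT 3 (0.18, 0.0253). The kinase that Ku recruits, Prkdc, was not called (-0.09 ± 0.06, adjusted p = 0.250); without PDT 3 it was called lower, at -0.15 (0.0331).

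Both RecQ helicases, which unwind recombination and fork structures and whose loss causes the Werner and Bloom syndromes in humans, fell. Wrn went from 41.8, 44.8 and 42.8 CPM to 30.1, 29.7 and 33.5 CPM. The groups were far apart for their spread (43.1 ± 1.55 against 31.1 ± 2.07 CPM), at a log2 fold change of -0.47 ± 0.06 (adjusted p = 2.29e-04), or 1.39-fold lower. Blm went from 20.8, 20.3 and 23.5 CPM to 14.8, 17.7 and 18.0 CPM, at -0.35 ± 0.09 (adjusted p = 0.0118), with an adjusted p of 0.0521 without PBS 3. Of the 3 members of crosslink repair 0 were called by edgeR, DESeq2 or limma-voom, and 0 had an unadjusted p under 0.05 in any of these tests: Fanca, of the core complex, had a log2 fold change of -0.08 ± 0.05 (adjusted p = 0.258), and Fancd2 and Fanci, the pair that the core complex ubiquitinates, had 0.05 ± 0.05 (0.538) and 0.02 ± 0.06 (0.820).

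**Figure D3:**
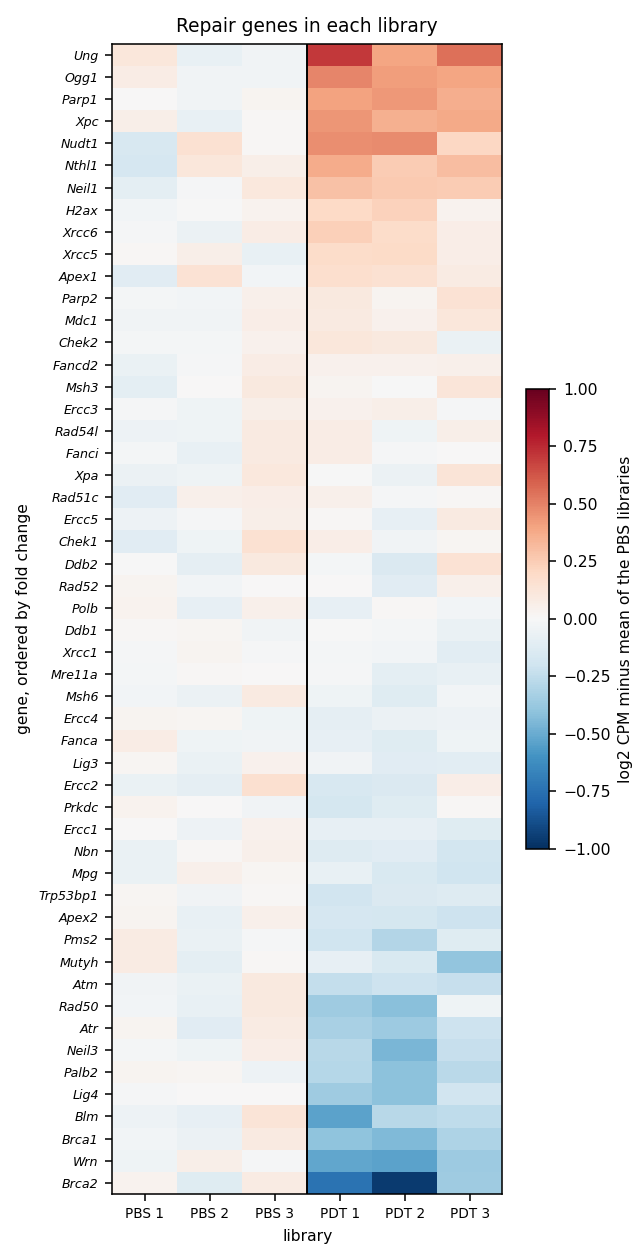
Difference of log2 CPM from the mean of the PBS libraries (colour scale, log2 units) for each tested repair gene (rows, ordered by fold change) in each of the 6 libraries (columns). Red in the PDT columns runs from Ung down to Xrcc6 and blue from Brca2 up to Nbn, and the PDT 3 column is paler than the other PDT columns among the genes that fell, with a median of -0.23 over the 12 called lower, against -0.34 and -0.41.

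The libraries of the PDT group differed in how far these genes moved. Over the 8 members called higher, the median difference from PBS in log2 CPM was 0.42 in PDT 1, 0.38 in PDT 2 and 0.33 in PDT 3. Over the 12 called lower it was -0.34, -0.41 and -0.23. PDT 3 was the PDT library nearest to PBS in 5 of the 8 members called higher and 10 of the 12 called lower, and in 61.1% and 59.7% of all genes called higher and lower. Without PDT 3, 9 members were called higher and 13 lower, against 38.1% of all genes called in either direction. Over 23 proliferation genes the median difference was 0.05, -0.01 and -0.07 in PDT 1, PDT 2 and PDT 3.

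Per length of transcript, the members spanned a wide range of levels. With CPM divided by the length of the longest GENCODE M21 transcript, Ddb1 led in PBS with 264 CPM per kb, followed by H2ax at 66.5, Apex1 at 36.7, Parp1 at 26.1 and Polb at 25.0 CPM per kb. Ddb1 stood 3.97 times above H2ax on this scale. At the low end were Ung at 2.16, Brca2 at 1.99, Neil1 at 1.98 and Palb2 at 1.72 CPM per kb, with Neil2 at 0.0250 CPM per kb. The member with the largest rise and the member with the largest fall were thus both among the least abundant per length. Ogg1 went from 9.14 to 12.4 CPM per kb and Parp1 from 26.1 to 34.3 CPM per kb.

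The members that rose and those that fell differed in the length and base composition of their transcripts. The median transcript length was 1842.5 nt for the 8 members called higher, 5707.5 nt for the 12 called lower and 3529 nt for the 32 not called, and the median GC content was 54.3%, 44.4% and 48.9%. Of the 18 longest members (4485 to 12647 nt), 9 fell and 0 rose (at an unadjusted p, 11 and 0; 10 and 0 by DESeq2, and 9 and 0 by limma-voom); of the 17 shortest (954 to 2276 nt), 5 rose and 1 fell. All tested genes in those length ranges had medians of -0.10 and 0.07 on the log2 scale, beside -0.19 and 0.05 for the members. The background share of calls within each length range is not given here. Whether the split of calls by length is particular to the members was therefore not tested. Across the 52 members, as a description, Spearman's rho with the log2 fold change was -0.52 for length and 0.50 for GC content, and length and GC content were themselves related (-0.58). Across 16618 tested genes with both properties known, rho was -0.17 for length and 0.28 for GC content.

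To see which calls were separate from these properties, each library was corrected with a smooth curve of length and GC content before the same edgeR fit. The correction also removes any effect of treatment that follows length or GC content, so that the corrected values are no better an estimate than the uncorrected ones. With the correction 7 members were called higher and 11 lower, against 33.6% of 16618 genes called in either direction. Without it, on the same 16618 genes, 8 members were called higher and 14 lower, against 37.5% of genes. Of the 8 members called higher before, 4 stayed so: Ogg1 (log2 fold change 0.29, adjusted p = 0.00372), Ung (0.44, 0.0113), Parp1 (0.34, 4.12e-05) and Xpc (0.33, 0.00186). Of the 12 called lower, 6 stayed so: Neil3 (-0.32, 0.00402), Brca1 (-0.27, 0.00144), Brca2 (-0.37, 0.0138), Palb2 (-0.31, 0.0224), Blm (-0.24, 0.0373) and Wrn (-0.25, 0.00251). The share of all called genes that kept their call with the correction is not given here.

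Several of the longest transcripts behaved otherwise. With the correction Atm had a log2 fold change of 0.06 (adjusted p = 0.488), Atr 0.02 (0.844) and Trp53bp1 -0.02 (0.776), and Prkdc, the longest member, became called higher at 0.20 (0.00494). Among short transcripts, H2ax had 0.00 (0.985), Nthl1 0.13 (0.260) and Nudt1 0.20 (0.143), so that none of their calls remained. Lig4 (-0.13, 0.183), Rad50 (-0.17, 0.121), Nbn (-0.10, 0.101) and Xrcc6 (0.09, 0.208) lost theirs too. Besides Prkdc, members not called without the correction and called with it were Chek1 (0.20, 0.0351) and Mdc1 (0.14, 0.0222), higher, and Mutyh (-0.35, 0.0383), Mpg (-0.27, 0.00491), Xrcc1 (-0.15, 0.0141), Ercc1 (-0.25, 0.00447) and Ercc4 (-0.14, 0.0473), lower. The part of RNA fragmentation or library preparation in these differences was not tested.

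**Figure D4:**
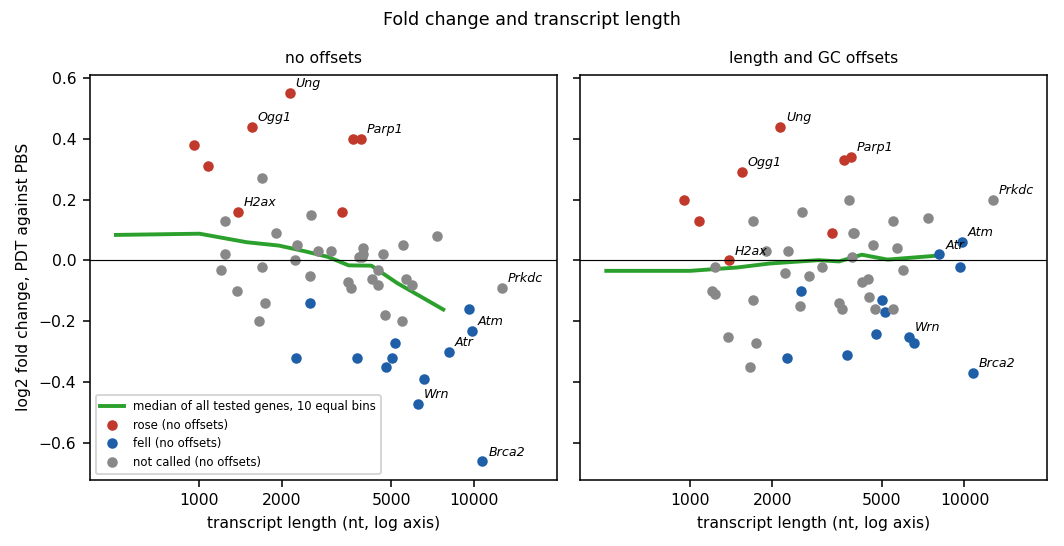
Log2 fold change of each tested repair gene (vertical axis) against transcript length in nt (horizontal log axis), without correction (left) and with correction for length and GC content (right); colours mark the call without correction and the green line joins medians of all tested genes in 10 bins of equal size. On the left the long genes Brca2, Wrn, Atr and Atm lie below 0 and the short Ung and Ogg1 above; on the right Atr (0.02) and Atm (0.06) lie near 0 while Brca2 (-0.37), Parp1 (0.34) and Ung (0.44) stay apart from it.

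The same fit was read for 114 other tested repair genes, listed by pathway. In all, 17 of them rose and 26 fell, with a median log2 fold change of 0, beside 36.1% of all genes called. With the correction for length and GC content 12 were higher and 15 lower, beside 33.6% of genes. Among 16 other base excision genes, 3 rose and 1 fell, without PBS 2, 1 rose and 2 fell, and with the correction 1 rose and 1 fell. The glycohydrolase Parg, which takes off the chains that Parp1 builds, fell by 0.23 on the log2 scale (adjusted p = 0.00279), from 50.5, 49.5 and 52.9 CPM to 42.8, 43.3 and 44.3 CPM. Parp1 and Parg thus moved in opposite directions, and both calls held in all 17 fits. Tdp1, which frees DNA ends from trapped proteins, rose at 0.25 ± 0.07 (adjusted p = 0.0154) and lost the call without PBS 2 (0.0638) and without PDT 1 (0.0707), and Parp3 rose at 0.18 ± 0.04 (0.00809). With the correction neither was called (Tdp1 0.14, 0.103; Parp3 0.10, 0.0740).

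Of 20 other nucleotide excision genes 5 rose and 3 fell; without PBS 1 or without PDT 1, 2 rose and 3 fell, and with the correction 6 rose and 3 fell. Ercc6, which starts repair where RNA polymerase has stalled, fell at -0.49 ± 0.07 (6.57e-04), and Cul4b, a scaffold of the ligases that Ddb1 serves, fell at -0.36 ± 0.05 (2.84e-04). Of 8 other mismatch repair genes 0 rose and 3 fell (Pms1, Exo1 and Rfc1, at -0.31, -0.19 and -0.17); by edgeR 0 of the 8 were called without PBS 3 or without PDT 2, where 3 and 4 respectively had an unadjusted p under 0.05. With the correction Pms1 (-0.15, adjusted p = 0.229), Exo1 (-0.05, 0.585) and Rfc1 (-0.12, 0.0537) were not called.

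Among 24 other homologous recombination genes 4 rose and 5 fell, and with the correction 2 rose and 1 fell. Brip1, a helicase that binds Brca1, fell at -0.35 ± 0.06 (adjusted p = 0.00105), whereas the structure-specific nuclease Mus81 rose at 0.30 ± 0.05 (0.00129) and Babam1, of the Brca1-A complex, rose at 0.26 ± 0.05 (0.00234). With the correction Mus81 stayed called (0.19, 0.0126), and Brip1 (-0.08, 0.295) and Babam1 (0.11, 0.0529) did not. Of 7 other end joining genes, the gap-filling polymerase Polm rose at 0.45 ± 0.06 (2.93e-04) and Polq, of the alternative pathway, fell at -0.37 ± 0.09 (0.00869). Of 13 other Fanconi genes 2 rose and 4 fell (5 fell with the correction), with Fancb, Fancm and Fancf at -0.62 ± 0.09 (7.09e-04), -0.59 ± 0.09 (6.74e-04) and -0.56 ± 0.09 (8.27e-04). These exceeded every fall among the members except that of Brca2.

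Of 16 other checkpoint and signalling genes 1 rose and 6 fell. Etaa1, an activator of ATR, fell at -0.40 ± 0.07 (adjusted p = 0.00177) and Clspn, which joins Atr to Chek1, at -0.33 ± 0.07 (0.00433), while Rad9a, of the clamp that also activates ATR, rose at 0.32 ± 0.06 (0.00183). The call of Etaa1 was lost with the correction for length and GC content (-0.16, 0.107), and that of Clspn was not (-0.31, 0.00350). With the correction this list had 2 genes higher and 2 lower, and 3 lower without PBS 1, without PBS 3 or without PDT 1. Of 10 translesion and direct reversal genes 1 rose and 3 fell (1 and 1 without PBS 3): the translesion polymerase Polk fell at -0.62 ± 0.07 (1.14e-04), Rev3l at -0.57 ± 0.14 (0.0126; 0.0576 without PBS 3), and the demethylase Alkbh3 rose at 0.21 ± 0.04 (0.00568). Of these, only Polk stayed called with the correction (-0.44, 1.72e-04), with Rev3l at -0.28 (0.0664) and Alkbh3 at 0.07 (0.256).

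**Figure D5:**
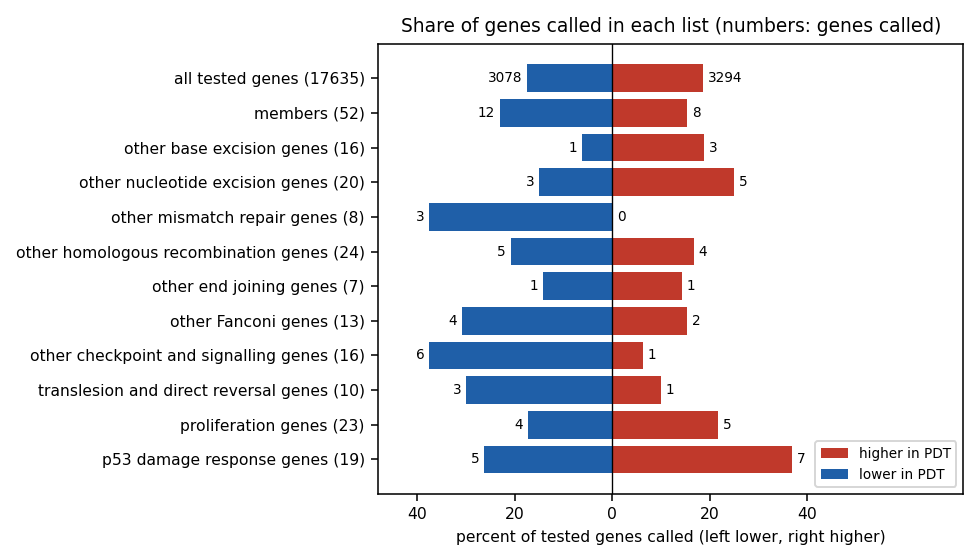
Percent of tested genes called lower (blue, to the left) and higher (red, to the right) in PDT for all tested genes, the 52 members and 10 other lists, with the number of tested genes in brackets and the number called beside each bar. All tested genes had 18.7% higher and 17.5% lower; the checkpoint list leans to lower (6 of 16 against 1) and the p53 list holds 7 higher and 5 lower of 19.

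Genes that p53 is known to induce after DNA damage were read beside the members, and moved in both directions: 7 of 19 rose and 5 fell, with a median of 0.04. Of all tested genes 18.7% were called higher and 17.5% lower. With the correction for length and GC content 6 of the 19 rose and 5 fell, against 33.6% of genes called in either direction. Plk2 rose from 99.3, 92.2 and 98.0 CPM to 164, 157 and 168 CPM, at 0.75 ± 0.04 (adjusted p = 1.74e-06), and Gadd45a rose from 12.9, 12.7 and 12.4 CPM to 20.9, 22.2 and 21.9 CPM, at 0.77 ± 0.06 (1.07e-05). Btg2 fell at -0.40 ± 0.04 (6.96e-05). Cdkn1a, the inhibitor of cyclin-dependent kinases and the best known p53 target (chosen after its values were seen), was lower at 239, 239 and 233 CPM against 224, 215 and 214 CPM, a log2 fold change of -0.12 ± 0.04 (adjusted p = 0.0231). The list's calls were 7 without PBS 1, without PDT 1 or without PDT 2, against 12 with all libraries. Of all tested genes 28.0%, 26.3% and 26.8% were called in those fits, and 36.1% with all libraries.

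Because several members are made mainly in dividing cells, proliferation genes were read too: 5 of 23 rose and 4 fell, with a median of 0; 8 rose and 3 fell without PBS 3, 3 rose and 3 fell without PDT 1, and 3 rose and 8 fell with the correction for length and GC content. Ccne2 fell at -0.66 ± 0.06 (adjusted p = 4.06e-05) and Bub1 at -0.48 ± 0.05 (8.94e-05), and the replication helicase subunit Mcm2 rose at 0.27 ± 0.04 (3.79e-04). The summed level of the list ran from 3349 to 3669 CPM in PBS and from 3234 to 3349 CPM in PDT. The part of cell division in the changes of the members was not tested.

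In the GENCODE M21 annotation 27 of the 53 members share exonic bases with another gene, and 20 share them with a protein-coding gene on the opposite strand. Ogg1 shares 232 of 2187 exonic nucleotides with Camk1, Ddb1 328 of 6409 with Tkfc, Xrcc6 344 of 4476 with Desi1, and Trp53bp1 2130 of 14164 with Tubgcp4. The libraries were directional, but whether strand was used in counting is not given in the sources used here, so that reads in these stretches may belong to either gene.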

How the data were processed

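RNA was measured in 3 PBS and 3 PDT samples of TGF-β-activated 10T1/2 cells, grouped by the treatment label and numbered from the titles. Per the labels' protocols, Trizol RNA was depleted of ribosomal RNA and made into directional libraries. The deposited values are whole-number counts per gene symbol, not normalised. The tools named in the submitters' processing notes are cutadapt 4.6 and STAR 2.7.11b, with build GRCm39; which counter and annotation were used, and how strand and multi-mapping reads were handled, is not given in the sources used here.

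Genes were filtered with filterByExpr, scaled with TMM and tested with edgeR 4.0.16 (R 4.3.3; quasi-likelihood) on group alone, with Benjamini-Hochberg adjustment over all 17635 tested genes and a threshold of 0.05. The SE is the size of the log2 fold change divided by the square root of F. The 95% intervals were made from this SE with a normal approximation and are narrower than the quasi-likelihood test implies. For Mpg the interval ran from -0.27 to -0.02, although its unadjusted p by edgeR was 0.0517. CPM used TMM-scaled library sizes, and log2 CPM a prior count of 2. Intervals and floors cover counting error and the fitted spread only, and a floor is 3 counts. The script was tested on simulated data. A test over 3 against 3 samples for a single value cannot go below an exact p of 0.10, so none is given.

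Length and GC content came from the longest transcript of each gene in GENCODE M21 (GRCm38, used for properties only) and were known for 94.2% of tested genes; the correction used smooth curves of mgcv 1.9.3. Promoters are RefSeq's. Alternatives were other tools (DESeq2 1.42.0, voom of limma 3.58.1), other scalings (RLE, library size only), no filter, a stricter filter (10 counts in 3 samples, mean of 1 CPM), the replicate block, the genes of known length and GC content without the correction, with it, and with it and the block, and each sample left out. Members, lists and the naming rule were chosen with earlier results of these data known. Named with values in every sample were up to 2 called members per role with the lowest adjusted p, called members with a log2 fold change of 0.5 or more in size, and Ogg1, Atm, Atr, Chek1, Chek2, Parp1, Ddb2 and H2ax; Nthl1, Neil1, Ddb1, Nbn, Rad50 and Palb2 were described beyond that rule. Of the other lists, up to 3 called genes with the lowest adjusted p were named. Some genes that this rule selects are withheld and not reported here.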

Additional observations from a re-analysis of the deposited data

How the results depend on the processing

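Of the 20 called members, 8 kept their call under all 16 alternatives (4 higher, 4 lower). Of the 52 tested members, 25 changed their call under at least 1 alternative. The shares of all tested genes that kept or changed a call are not given here, so that these counts cannot be called particular to the members. The number of members called ranged from 13 to 22 with samples left out in turn, those called higher from 4 to 9 and those called lower from 8 to 13, with the median between -0.05 and -0.01. With library size only the median was 0.02 and 12 members were called higher and 10 lower, with Neil1, Apex1, Mdc1 and Xrcc5 among those gained. Among members called in the fit reported or in the alternative, the sign turned under 2 of the alternatives, the correction for length and GC content alone and with the replicate block: Atm was at 0.06 and 0.06, Atr at 0.02 and 0.02, and Prkdc at 0.20 and 0.20. All tested genes gave 6372 calls, and 4755 to 6877 with samples left out. The labels state no pairing of samples by replicate number. Deviations of samples with the same number correlated at -0.012, 0.014 and 0.005, which shows no sign of pairing but cannot exclude it. The replicate block gave 19 members called (7 higher, 12 lower). Nbn, H2ax and Xrcc6 lost their calls under the block. The SE of members that were not called ran from 0.04 to 0.12 on the log2 scale, which limits what 3 samples a group can show.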

Other observations

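The fibroblast marker list summed to 21315 to 22084 CPM in PBS and 12829 to 13467 CPM in PDT. Of its 10 genes 6 were called lower and 1 higher, against 17.5% and 18.7% of all tested genes. The median log2 fold change of the list was -0.26, so that the sum does not stand for each marker. Col1a1 had a log2 fold change of -1.31 (adjusted p = 1.16e-08 by edgeR), larger in size than that of any repair gene described above.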
